A study of Mus musculus with 8 samples.

Results

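The 10 genes described here encode enzymes and a carrier of arginine, ornithine and polyamine metabolism. They were chosen by gene symbol, and all 10 of them were found among the 18635 genes measured. RNA sequencing was performed on tumor-educated macrophages (TEMs), which were bone marrow-derived macrophages (BMDMs) kept for 24 h in medium conditioned by AE17 mouse mesothelioma cells (AE17-TCM). The 4 *Phgdh* fl/fl samples (control TEMs) carried both floxed *Phgdh* alleles and no Cre, and the 4 *Phgdh* fl/fl *Cx3cr1*-Cre samples (PHGDH-deficient TEMs) carried the same floxed alleles with Cre recombinase expressed from 1 *Cx3cr1* allele. All mice were on a C57BL/6 background and were 6 to 8 weeks old, the marrow was differentiated for 7 days in L929-conditioned medium, and both genotypes received AE17-TCM. The labels number the samples as replicates 1 to 4 of each genotype, and the paper describes them as biologically independent. The labels do not tie each sample to its own animal, so the p-values measure the spread between these samples.

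Arginine enters macrophages through cationic amino acid carriers and is then used in competing ways. Arginases split it into ornithine and urea, whereas nitric oxide synthases turn it into nitric oxide and citrulline, and citrulline can be rebuilt into arginine. Ornithine is the start of polyamine synthesis, which runs from putrescine through spermidine to spermine, and it can also be converted toward glutamate and proline. In mouse macrophages, high *Arg1* is a hallmark of activation by IL-4 and by tumors, and high *Nos2* is a hallmark of activation by interferon gamma and bacterial products.

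Between 38219563 and 47027420 reads per sample were assigned to genes. *Phgdh*, the deleted gene and the rate-limiting enzyme of serine synthesis, had a normalized count of 105 to 129 in control TEMs and of 14.2 to 35.3 in PHGDH-deficient TEMs, a log2 fold change of -2.15 (SE 0.21, limma adjusted p = 5.1e-08). A normalized count is the read count of a gene divided by a size factor of the sample. All log2 fold changes are PHGDH-deficient over control, on the log2(normalized count + 1) scale unless another setting is named. *Cx3cr1*, whose locus carries the Cre, fell from 1075 ± 94.2 to 660 ± 32.2 (SD, n = 4 each, limma adjusted p = 1.9e-09). Loss of PHGDH, the Cre and the Cre-carrying *Cx3cr1* allele occur together in every PHGDH-deficient sample, so their effects cannot be told apart. All 8 macrophage markers were detected, and their summed normalized count ran from 1002723 to 1092873 in control TEMs and from 988259 to 1063705 in PHGDH-deficient TEMs. Most of this sum came from *Lyz2*, which did not pass the test. Called lower were 4 of the 8 (*Adgre1*, *Itgam*, *Fcgr1* and *Spi1*), with log2 fold changes from -0.40 (*Fcgr1*) to -0.084 (*Adgre1*). Of the neutrophil list, 1 of 9 markers was measured, *S100a8*, at 467 to 575 and 576 to 631. The summed dendritic cell markers (4 of 7 measured) ran from 8.27 to 30.5 and from 30.1 to 44.7, and the lymphoid markers (2 of 9) from 16.2 to 20.7 and from 9.001 to 28.2. The stromal, endothelial and mesothelial markers (7 of 12) ran from 525 to 612 and from 673 to 732, most of it from *Kdr*, and 0 of 8 erythroid and mast cell markers were measured. *S100a8* and *Kdr* were called higher in PHGDH-deficient TEMs, and the part of these marker differences in the results below was not tested. In bulk RNA, fewer cells expressing a gene and less of its RNA per cell cannot be told apart.

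Of the 10 genes, 4 were lower in PHGDH-deficient TEMs (*Arg1*, *Odc1*, *Srm* and *Sms*), 3 were higher (*Arg2*, *Nos2* and *Ass1*), and 3 did not pass the test (*Asl*, *Oat* and *Slc7a2*), at a limma adjusted p under 0.05 over all 13629 genes tested. Over all tested genes 41.0% were called, with 20.3% lower and 20.8% higher, so calls were frequent across the transcriptome. The groups did not overlap in any sample for the 4 lower genes and for *Nos2* and *Ass1*, against 36.7% of all tested genes (18.2% with the PHGDH-deficient samples below and 18.4% with them above). The 10 genes had a median log2 fold change of 0.036, beside -0.0018 over all tested genes. By RNA level, the cytosolic arginase and the polyamine synthesis enzymes were on the lower side. The inducible nitric oxide synthase, argininosuccinate synthase and the mitochondrial arginase were on the higher side. Each of the 6 genes without overlap had an exact permutation p of 0.0286 (two-sided), the lowest that 70 labelings allow.

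**Figure D1:**
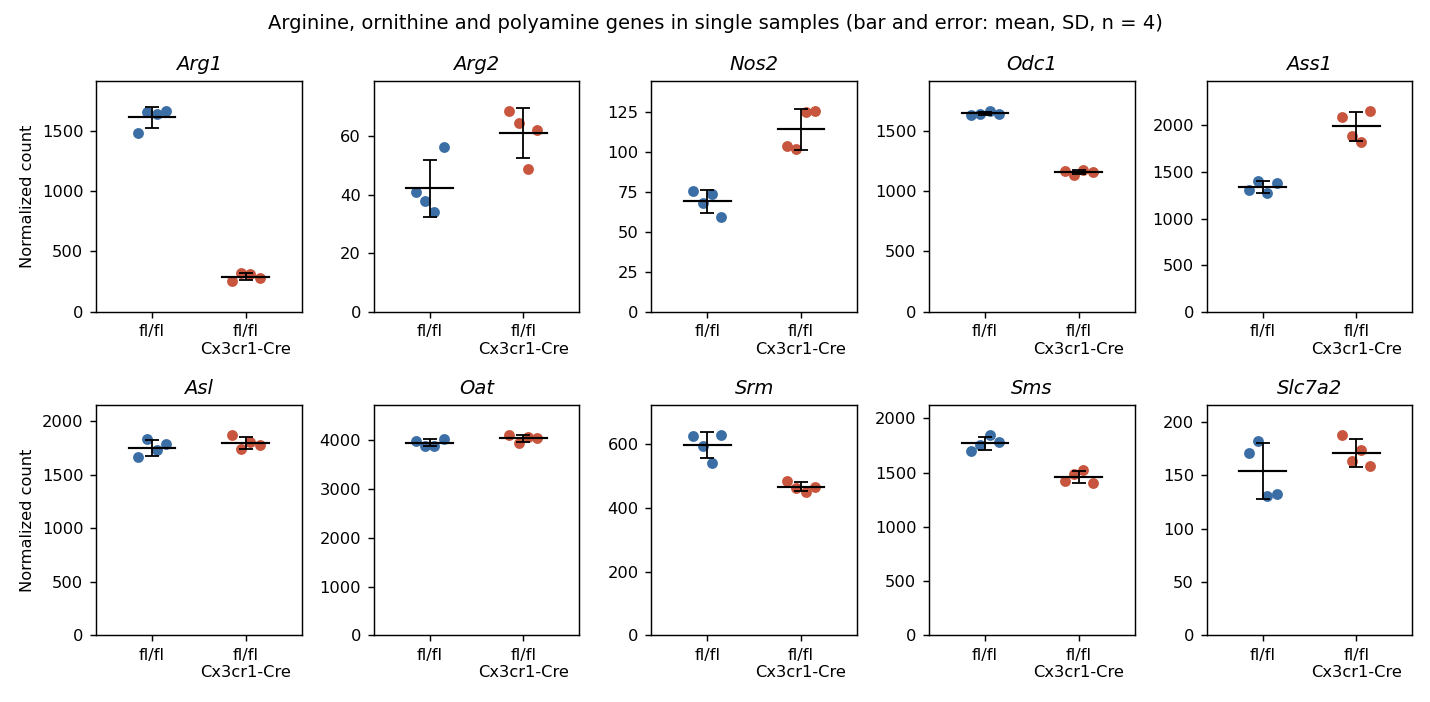
Normalized count of each of the 10 genes in single samples, with control TEMs (fl/fl) in blue and PHGDH-deficient TEMs (fl/fl Cx3cr1-Cre) in red; horizontal bars are means and error bars are SDs of 4 samples. Each vertical axis starts at 0, and the groups are fully separate for *Arg1*, *Nos2*, *Odc1*, *Ass1*, *Srm* and *Sms*.

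*Arg1* (ENSMUSG00000019987, mm10 chromosome 10 from 24915221 to 24927484) encodes the cytosolic arginase, which competes with nitric oxide synthase for arginine. Its normalized counts were 1481, 1657, 1642 and 1662 in control replicates 1 to 4 and 252, 317, 312 and 281 in PHGDH-deficient replicates 1 to 4. Every control sample lay far above every PHGDH-deficient sample. The mean fell by 82.0%, from 1610 ± 86.7 to 291 ± 30.2 (SD, n = 4 each), which is 5.54-fold lower. The log2 fold change was -2.47 (SE 0.063, limma adjusted p = 4.7e-17), rank 3 from the lowest and rank 2 by p among the 13629 tested genes. An absolute log2 fold change of at least 2 was called for 0.154% of all tested genes, and *Arg1* alone among the 10 genes reached it.

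Because *Arg1* changed most, the genes whose profile over the 8 samples lay nearest to it were listed by the root mean square difference of centred log2(normalized count + 1) values. The 5 nearest genes were *Gdf3*, a growth factor of the transforming growth factor beta family (0.42), the unnamed locus *Gm42639* (0.43), *Phgdh* itself (0.43), the chemokine *Cxcl14* (0.47) and *Angptl4*, an inhibitor of lipoprotein lipase (0.49). Because *Arg1* differs mainly between the genotypes, this measure mostly ranks genes by how near their genotype difference is to that of *Arg1*. *Gdf3* and *Gm42639* rested on few reads, 6 to 40 and 9 to 71 per sample. *Cxcl14* went from 197 ± 24.8 to 64.2 ± 8.12 and *Angptl4* from 101 ± 19.7 to 32.3 ± 3.94 normalized counts (SD, n = 4 each). The log2 fold changes of these 5 genes ran from -2.15 to -1.60, all smaller in size than that of *Arg1*.

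*Arg2* (ENSMUSG00000021125, chromosome 12 from 79130777 to 79156301) encodes the mitochondrial arginase. Its normalized counts were 40.9, 37.7, 34.1 and 56.3 in control TEMs and 68.6, 64.4, 48.8 and 62.2 in PHGDH-deficient TEMs. The groups overlapped, since control replicate 4 was above PHGDH-deficient replicate 3. The log2 fold change was 0.53 (SE 0.18, limma adjusted p = 0.0197), and an exact two-sided permutation test over the 70 labelings gave p = 0.0571. The call was lost without control replicate 3 (limma adjusted p = 0.0651) and without PHGDH-deficient replicate 1 (0.0647) or 2 (0.0531). On the opposite strand, 285 of the 1428 exon bases of *Arg2* are shared with *Vti1b*, a gene of vesicle fusion with a mean normalized count of 3558 and 3283, and whether the counting used strand is not given in the sources used here.

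*Nos2* (ENSMUSG00000020826, chromosome 11 from 78920787 to 78960254) encodes the inducible nitric oxide synthase. Its normalized counts were 75.3, 68.1, 73.4 and 59.2 in control TEMs and 104, 102, 125 and 125 in PHGDH-deficient TEMs. All 4 PHGDH-deficient samples were above all 4 control samples. The mean was 1.65 times higher, at 114 ± 13.05 against 69.0 ± 7.23 (SD, n = 4 each), with a log2 fold change of 0.72 (SE 0.13, limma adjusted p = 1.1e-04). The level was low in both genotypes, resting on 62 to 129 reads per sample.

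*Ass1* and *Asl* encode argininosuccinate synthase and argininosuccinate lyase, which together rebuild arginine from citrulline. *Ass1* (ENSMUSG00000076441, chromosome 2 from 31470207 to 31520672) had normalized counts of 1304, 1398, 1271 and 1380 in control TEMs and of 2092, 1888, 1825 and 2152 in PHGDH-deficient TEMs. The groups did not overlap, and the mean was 1.49 times higher (log2 fold change 0.57, SE 0.047, limma adjusted p = 3.9e-09). *Asl* (ENSMUSG00000025533, chromosome 5 from 130011258 to 130029247) had overlapping groups, from 1663 to 1836 and from 1738 to 1873. Its log2 fold change was 0.038, with a 95% interval from -0.037 to 0.11 (limma adjusted p = 0.425). The FPKM ratio of *Ass1* to *Asl* was 1.47 to 1.57 in control samples and 2.02 to 2.42 in PHGDH-deficient samples, without overlap. FPKM is the read count scaled by exon length and by the reads of the sample, computed here so that genes of different length can be compared.

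The pseudogene *Gm5424* matches *Ass1* transcripts at 99.5% identity over 1240 bases, so reads of the pair can match both. How such reads were counted is not given in the sources used here, and their part in the result for *Ass1* was not tested. *Gm5424* had a mean normalized count of 16.2 in control and 38.8 in PHGDH-deficient TEMs, which is small beside that of *Ass1*.

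*Odc1* (ENSMUSG00000011179, chromosome 12 from 17544794 to 17551505) encodes ornithine decarboxylase, which makes putrescine and is the committed step of polyamine synthesis. Its normalized counts were 1636, 1641, 1665 and 1644 in control TEMs and 1170, 1139, 1175 and 1159 in PHGDH-deficient TEMs. The spread within each genotype was small, with an SD of 12.9 and 16.0, and the groups were far apart. The mean fell by 29.5% (log2 fold change -0.50, SE 0.033, limma adjusted p = 1.1e-10). *AW146154*, which matches *Odc1* at 95.2% identity over 500 bases, had 271 and 268 normalized counts in the 2 genotypes. Several other loci match it too, among them *Gm17709* (97.8% over 937 bases) and *Gm9260* (95.1% over 1398 bases). How reads that match more than 1 of these loci were counted is not given in the sources used here. Their part in the result for *Odc1* was not tested.

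The promoters of *Odc1* and *Ass1* are shown because these genes of the ornithine and citrulline steps moved in opposite directions. Each sequence runs from 250 bases before to 50 bases after the RefSeq start site (GRCm38.p6, the build of mm10), on the gene's plus strand, and RefSeq promoter entries were matched for 4 of the 10 genes (*Odc1*, *Ass1*, *Oat* and *Sms*). Capitals mark the GC box GGGCGG and the E-box CACGTG, on either strand.
Odc1 promoter, chr12:17544623-17544922: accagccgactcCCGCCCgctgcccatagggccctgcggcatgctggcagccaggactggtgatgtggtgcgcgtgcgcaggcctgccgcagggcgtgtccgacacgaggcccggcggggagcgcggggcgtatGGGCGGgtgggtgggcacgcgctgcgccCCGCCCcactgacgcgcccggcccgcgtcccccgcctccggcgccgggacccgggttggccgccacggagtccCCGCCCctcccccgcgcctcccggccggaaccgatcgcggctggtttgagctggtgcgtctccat
Ass1 promoter, chr2:31470020-31470319: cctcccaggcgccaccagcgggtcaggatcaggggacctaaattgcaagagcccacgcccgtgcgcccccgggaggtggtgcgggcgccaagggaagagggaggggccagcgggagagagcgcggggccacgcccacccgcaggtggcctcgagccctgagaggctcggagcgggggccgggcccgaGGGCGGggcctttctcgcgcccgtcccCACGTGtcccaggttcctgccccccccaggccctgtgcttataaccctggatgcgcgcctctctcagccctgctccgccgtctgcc
The *Odc1* window held 4 GC boxes, which begin 238, 116, 88 and 15 bases before the start site, and no E-box. The *Ass1* window held 1 GC box 63 bases and 1 E-box 36 bases before the start site. Of 32851 RefSeq promoters of the same length, 35.7% held a GC box and 7.15% an E-box. These matches describe letters in the window and say nothing of which factor is bound.

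*Srm* encodes spermidine synthase and *Sms* encodes spermine synthase, the enzymes after ornithine decarboxylase. *Srm* (ENSMUSG00000006442, chromosome 4 from 148591503 to 148594993) had normalized counts of 624, 592, 541 and 628 in control TEMs and of 484, 462, 449 and 466 in PHGDH-deficient TEMs, and the groups did not overlap. It fell by 21.9% (log2 fold change -0.35, SE 0.056, limma adjusted p = 2.9e-05). *Sms* (ENSMUSG00000071708, chromosome X from 157443855 to 157492287) had normalized counts of 1703, 1752, 1848 and 1780 in control TEMs and of 1420, 1486, 1525 and 1405 in PHGDH-deficient TEMs, again without overlap. It fell by 17.6% (log2 fold change -0.28, SE 0.036, limma adjusted p = 2.6e-06). The RNA of all 3 enzymes that carry ornithine to spermine thus fell by 17.6% to 29.5%. The FPKM ratio of *Sms* to *Srm* overlapped between the genotypes, at 0.726 to 0.910 and 0.781 to 0.903.

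*Sms* is X-linked. *Xist*, the RNA that coats the inactive X chromosome of females, had a normalized count of 0 to 8.59 in control and of 22.4 to 43.6 in PHGDH-deficient TEMs. The Y-linked gene *Ddx3y* was at 5841 to 6248 and 5773 to 6381, high in every sample. Of the other Y-linked genes, *Eif2s3y* fell (log2 fold change -0.18, limma adjusted p = 8.3e-06), *Uty* rose (0.19, limma adjusted p = 6.8e-05) and *Kdm5d* did not pass the test (0.077, limma adjusted p = 0.0637). The source of the *Xist* RNA was not tested, nor was its part in the results for *Sms* and for *Sat1* and *Slc6a8*, which are also X-linked and are described with their pathways. The pseudogene *Sms-ps*, identical to *Sms* over 1101 bases, had 13.4 and 9.61 normalized counts. How reads that match both were counted is not given here either, and their part in the result for *Sms* was not tested.

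*Oat* (ENSMUSG00000030934, chromosome 7 from 132557478 to 132576398) encodes ornithine aminotransferase, which takes ornithine toward glutamate and proline. Its normalized counts were 3976, 3879, 3888 and 4034 in control TEMs and 4109, 3941, 4056 and 4038 in PHGDH-deficient TEMs, and the groups overlapped. The log2 fold change was 0.033, with a 95% interval from -0.020 to 0.087 (limma adjusted p = 0.321). A setting chosen after seeing the data took off the trend of each sample's deviation from the gene mean over GC content and exon length. With it, the log2 fold change was 0.086 and passed the test (limma adjusted p = 0.0078). The FPKM ratio of *Odc1* to *Oat*, the enzymes that draw on ornithine, was 0.282 to 0.297 in control samples and 0.197 to 0.201 in PHGDH-deficient samples.

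*Slc7a2* (ENSMUSG00000031596, chromosome 8 from 40862396 to 40922308) encodes CAT2, a cationic amino acid carrier that brings arginine into macrophages. Its normalized counts were 171, 182, 130 and 133 in control TEMs and 188, 163, 174 and 159 in PHGDH-deficient TEMs, and the groups overlapped. The log2 fold change was 0.16, with a 95% interval from -0.069 to 0.39 (limma adjusted p = 0.261).

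**Figure D2:**
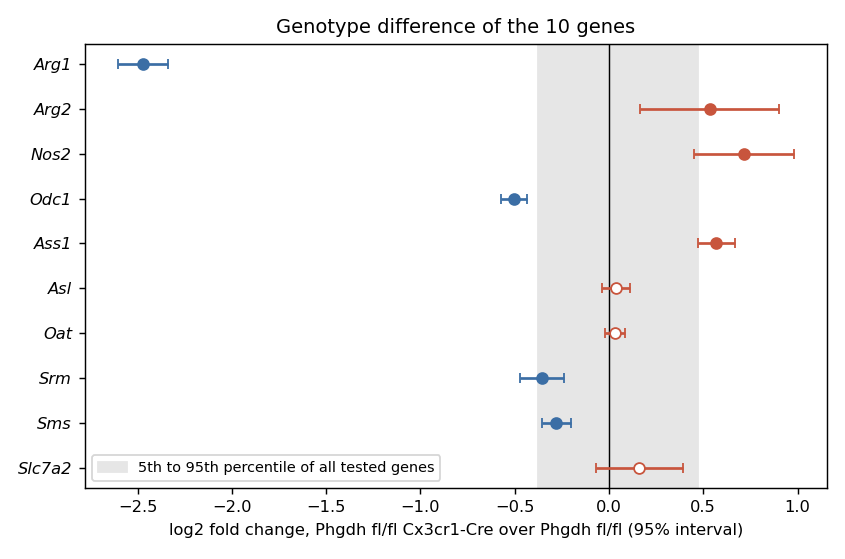
log2 fold change of each of the 10 genes, PHGDH-deficient over control TEMs (n = 4 each), with its 95% interval from limma; filled points passed the test and open points did not. The grey band holds the 5th to 95th percentile of all tested genes, from -0.38 to 0.47, and *Arg1* lies far to its left at -2.47.

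Levels of different genes were compared as FPKM. In control TEMs the order of mean FPKM was *Oat* (38.6), *Arg1* (16.7), *Ass1* (12.8), *Odc1* (11.2), *Srm* (8.60), *Asl* (8.38), *Sms* (6.80), *Arg2* (0.683), *Slc7a2* (0.389) and *Nos2* (0.361). The neighbours *Srm* and *Asl* overlapped over the 4 samples, as did *Slc7a2* and *Nos2*, and no other neighbours did. In PHGDH-deficient TEMs the order was *Oat* (39.9), *Ass1* (19.2), *Asl* (8.69), *Odc1* (7.95), *Srm* (6.79), *Sms* (5.66), *Arg1* (3.04), *Arg2* (0.996), *Nos2* (0.602) and *Slc7a2* (0.436), and no neighbours overlapped. *Arg1* went from rank 2 to rank 7 of the 10 genes, and the level of *Nos2* stayed below that of *Arg1* in every sample of both genotypes.

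**Figure D3:**
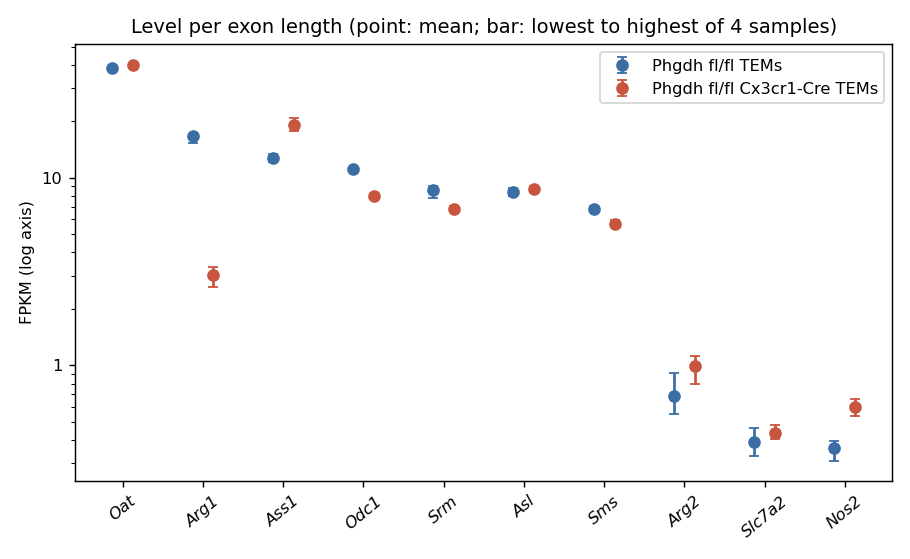
FPKM of the 10 genes on a log axis, ordered by the control mean; points are means and bars run from the lowest to the highest of 4 samples. *Oat* is the highest in both genotypes, and *Arg1* drops from 16.7 to 3.04.

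The balance of the arginine-using genes was described by FPKM ratios within a sample, with no test. The ratio of *Arg1* to *Nos2* was 38.9, 48.2, 44.3 and 55.6 in control TEMs and 4.82, 6.16, 4.94 and 4.44 in PHGDH-deficient TEMs. Its mean was 9.19-fold lower, at 5.09 ± 0.747 against 46.8 ± 7.02 (SD, n = 4 each). The ratio of *Arg1* to *Arg2* was 18.9 to 30.8 in control and 2.35 to 4.10 in PHGDH-deficient samples. *Arg1* made up 96.1% ± 0.836 of the summed FPKM of both arginases in control TEMs and 75.2% ± 4.22 in PHGDH-deficient TEMs (SD, n = 4 each). *Arg1* thus remained the more abundant arginase RNA in all samples.

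**Figure D4:**
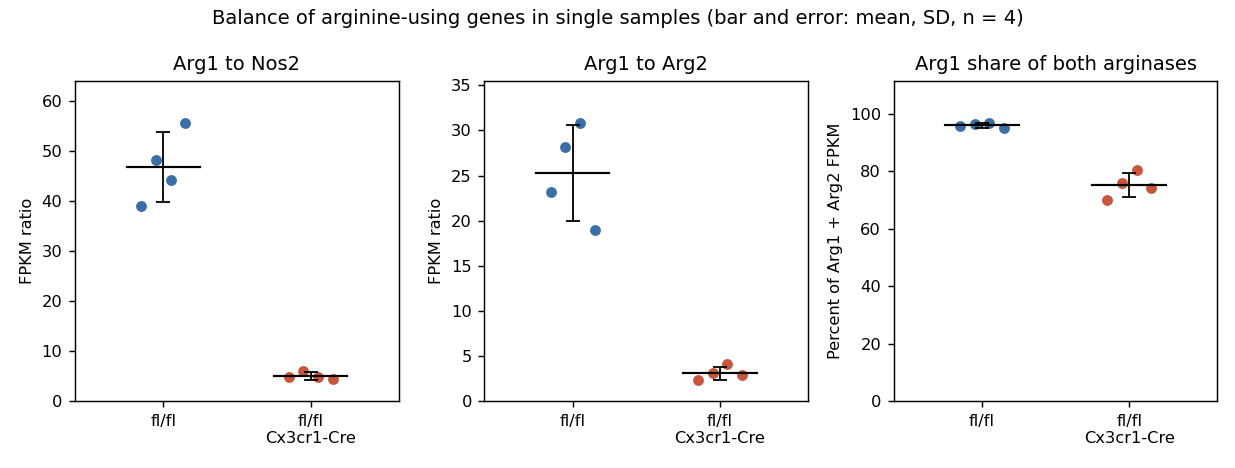
FPKM ratio of *Arg1* to *Nos2*, FPKM ratio of *Arg1* to *Arg2*, and *Arg1* as a percent of the summed FPKM of both arginases, in single samples (bars: mean; error bars: SD, n = 4). The genotypes are separate in all 3 panels, with the *Arg1* to *Nos2* ratio between 38.9 and 55.6 in control and between 4.44 and 6.16 in PHGDH-deficient samples.

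Other genes of the pathway were taken from 8 lists, of which 55 genes were tested. Of these, 9 were called higher and 19 lower, and 27 did not pass the test, so that 50.9% were called beside 41.0% of all tested genes. None of the called genes changed as much as *Arg1*, and their largest log2 fold change in size was -0.79.

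In polyamine turnover, 3 of 13 tested genes rose, 4 fell and 6 did not pass the test, with a median log2 fold change of 0.075. *Sat1*, the acetyltransferase that starts polyamine breakdown and export, rose from 14813 ± 375 to 17512 ± 445 normalized counts (log2 fold change 0.24, SE 0.024, limma adjusted p = 7.1e-08). The polyamine transporters *Atp13a3* (0.18) and *Atp13a2* (0.13) also rose. *Oaz1*, the antizyme that targets ornithine decarboxylase for degradation, fell from 9210 ± 609 to 7741 ± 137 (log2 fold change -0.25, SE 0.034, limma adjusted p = 4.1e-06). *Mtap*, which salvages the methylthioadenosine that spermidine and spermine synthases release, fell by 0.24 on the log2 scale, and spermine oxidase (*Smox*) by 0.12. *Amd1*, the decarboxylase that supplies the aminopropyl groups, was just past the threshold (log2 fold change -0.091, limma adjusted p = 0.0419) and lost the call in 12 of 19 other settings, among them without control replicate 3 or 4 or any PHGDH-deficient replicate (limma adjusted p up to 0.118). The antizyme inhibitor *Azin1* did not pass the test (log2 fold change 0.031, limma adjusted p = 0.266).

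Spermidine donates the group that makes hypusine on the translation factor eIF5A. *Eif5a* fell from 13070.5 ± 399 to 10448 ± 65.7 (log2 fold change -0.32, SE 0.023, limma adjusted p = 6.4e-10), and the groups did not overlap. The other 3 genes of this list did not pass the test, including the hypusinating enzymes *Dhps* (log2 fold change -0.11) and *Dohh* (-0.18, limma adjusted p = 0.0588). *Dohh* passed the test in 6 of 19 other settings, among them without control replicate 1 (limma adjusted p = 0.0210) or 3 (0.0382). Without control replicate 1, *Dhps* also passed it (limma adjusted p = 0.0282) and 3 genes of this list were called.

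Of 6 tested carriers of arginine and ornithine, *Slc7a1*, the widely expressed cationic carrier CAT1, passed the test with a lower level (log2 fold change -0.17, limma adjusted p = 0.0056) and *Slc3a2*, the heavy chain of several amino acid carriers, rose (0.067, limma adjusted p = 0.0241). The normalized counts of *Slc7a1* overlapped between the genotypes, at 1128 to 1315 and 1047 to 1140, and its call was lost on the log2(FPKM + 1) scale (limma adjusted p = 0.0690). Without control replicate 3 or PHGDH-deficient replicate 1 or 4, *Slc3a2* lost its call (limma adjusted p = 0.0678, 0.0659 and 0.0684). The mitochondrial ornithine carrier *Slc25a15* did not pass the test (log2 fold change -0.0099).

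The RNA of both enzymes of creatine synthesis, which starts from arginine and glycine, fell. *Gatm* had a log2 fold change of -0.32 (limma adjusted p = 8.2e-07) and *Gamt* of -0.37 (1.6e-05), and the creatine carrier *Slc6a8* rose from 6503 ± 94.4 to 8001 ± 338 (log2 fold change 0.30, limma adjusted p = 2.2e-08). The urea cycle genes *Cps1*, *Otc* and *Nags* and the related *Agmat* were not analysed here.

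In the nitric oxide list, 2 of 8 tested genes rose and 3 fell. *Gch1*, the entry enzyme for the cofactor tetrahydrobiopterin, rose (log2 fold change 0.10, limma adjusted p = 0.0278), as did the synthase trafficking factor *Nostrin* (0.14). The normalized counts of *Nostrin* overlapped between the genotypes, at 1475 to 1635 in control and 1618 to 1790 in PHGDH-deficient TEMs. *Gch1* lost its call without control replicate 4 (limma adjusted p = 0.104) or PHGDH-deficient replicate 2 (0.0908) or 4 (0.0670). The endothelial synthase *Nos3* was low and overlapped between the groups, at 13.8 to 23.2 and 8.13 to 17.5 normalized counts (log2 fold change -0.79, SE 0.31, limma adjusted p = 0.0472), and its call was lost in 13 of 18 other settings, among them without any sample other than control replicate 2 and PHGDH-deficient replicate 4 (up to 0.119). *Qdpr* (-0.078) and *Ddah2* (-0.11) were past the threshold by a small margin and lost it in 11 and 13 of 19 other settings, the omission of any PHGDH-deficient replicate among them. Beside 5 called genes in this list, 1 was called without control replicate 4 or PHGDH-deficient replicate 2, 2 were called without PHGDH-deficient replicate 1, 3 or 4, and 3 without control replicate 1.

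Among the proline and glutamate genes, 2 of 6 tested genes fell and 4 did not pass the test. *Aldh18a1*, which makes the proline precursor from glutamate, fell from 823 ± 29.4 to 712 ± 5.12 (log2 fold change -0.21, limma adjusted p = 5.2e-04). *Glud1*, glutamate dehydrogenase, fell by 0.10 on the log2 scale (limma adjusted p = 5.9e-04).

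Textbook regulators of *Arg1* and *Nos2* were read as RNA levels only. Of 8 regulators of *Arg1*, *Hif1a* rose (log2 fold change 0.14), *Pparg* (-0.21), *Spi1* (-0.21) and *Stat6* (-0.059) fell, and *Cebpb* (0.095), *Klf4* (0.086), *Stat3* (-0.012) and *Il4ra* (-0.026) did not pass the test. *Stat6*, the transcription factor downstream of the IL-4 receptor, lost its call in 9 of 19 other settings, among them without control replicate 2 or 3 or PHGDH-deficient replicate 1 or 2 (limma adjusted p up to 0.0897). *Cebpb* passed the test without control replicate 2 (0.0230) or PHGDH-deficient replicate 4 (0.0213), and *Klf4* (limma adjusted p = 0.0452) and *Stat3* (0.00759) passed it with the trend over GC content and length taken off. Of 7 regulators of *Nos2*, 3 fell, namely *Irf8* (log2 fold change -0.20, limma adjusted p = 8.4e-07), *Myd88* (-0.13) and *Ifngr1* (-0.092), although *Nos2* itself was higher. With the trend over GC content and exon length taken off, *Myd88* (limma adjusted p = 0.0520) and *Ifngr1* (0.0864) lost their calls. *Nfkb1* rose (0.062, limma adjusted p = 0.0339), but it lost the call without any sample other than control replicate 1 (up to 0.0933), and its log2 fold change was -0.029 with the GC content and length trend taken off.

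**Figure D5:**
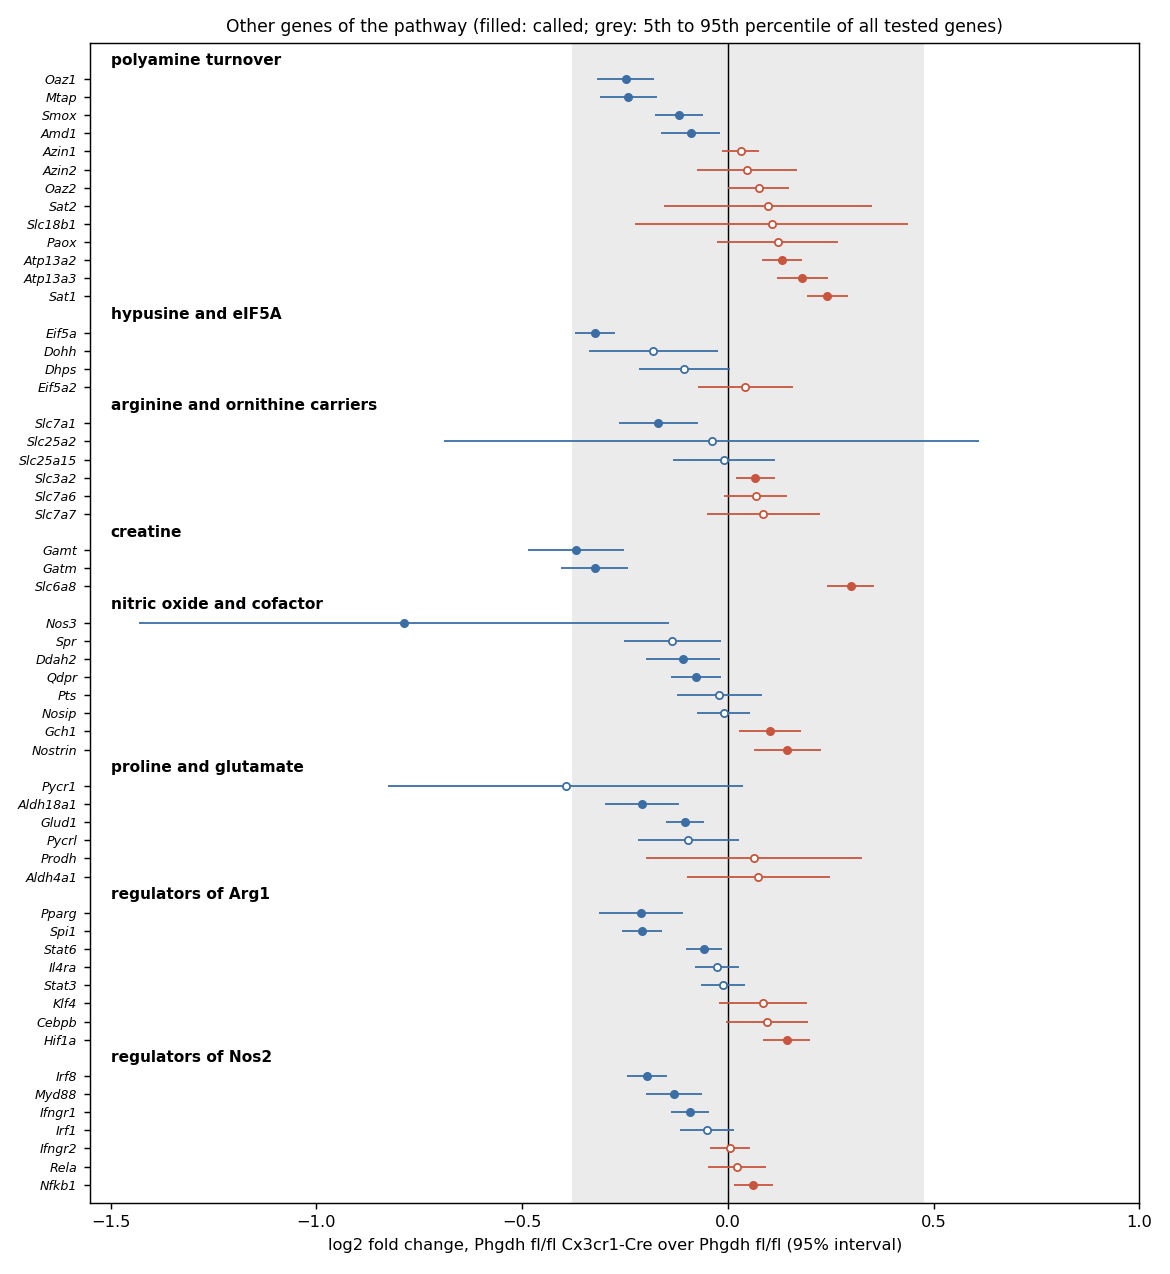
log2 fold change of the 55 tested genes of the 8 lists, PHGDH-deficient over control TEMs (n = 4 each), with 95% intervals from limma; filled points passed the test, red lies above 0 and blue below. Most points lie inside the grey band of the 5th to 95th percentile of all tested genes, -0.38 to 0.47, with *Nos3* at -0.79 the farthest out.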

How the data were processed

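RNA from 8 samples was sequenced as single-end reads of 75 bases from a strand-marking library kit. The authors mapped the reads to mm10 with TopHat2 and counted them with HTSeq 0.6, as listed in the submitters' processing notes, and DESeq2 scaled the counts. Although named FPKM, the signal deposited for each gene is its read count over the size factor of the sample (a normalized count). The deposited table also holds the authors' mean, log2 fold change, test score and p-values from DESeq2, which were not used here. Whole reads were recovered for 100% of the 144353 values above 0 (within 0.01 of a whole number). Untreated BMDMs were not analysed here.

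The 13629 genes averaging 10 or more normalized counts were compared on log2(normalized count + 1) with limma 3.58.1 in R 4.3.3 (lmFit, then eBayes with a trend, both tails, adjusted by Benjamini-Hochberg over all tested genes), and called at an adjusted p under 0.05. An exact permutation test over the 70 labelings, two-sided, was run per gene, and its smallest possible p is 0.0286. FPKM was computed from recovered reads and GENCODE M21 exon lengths. Near-identical transcripts were those matching at 95% identity or more over at least 150 bases. On simulated data of 13629 genes, limma recovered 192 of 200 changed genes with 12 false calls. The simulation changed far fewer genes than the 5594 called in the data, so these rates hold for the simulation only. Its result was not split by size of change, so it gives no recovery rate for small changes.

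The 10 genes and all lists were chosen with earlier results of these data known, and some genes of the lists are not reported here. Named are the 10 genes, *Phgdh*, genes of the lists (called or, with their values, not called), cell type markers, *Cx3cr1*, the 5 genes nearest to *Arg1*, genes overlapping or near-identical to 1 of the 10, and sex-linked genes beside the X-linked *Sms*. Alternatives were other pseudocounts, filters and scalings, edgeR 4.0.16 and DESeq2 1.42.0 on recovered reads, a replicate block, omission of each sample, and, chosen after seeing the data, a GC content and length correction.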

Additional observations from a re-analysis of the deposited data

Results flagged for a closer look

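Single samples were compared with the other 3 samples of their genotype by Dixon's ratio in 132 groups of 4 samples. The screen covered the arginine, ornithine and polyamine genes chosen at the start, *Phgdh* and the tested genes of the pathway lists. Other genes named above, among them *Cx3cr1*, *S100a8*, *Gdf3* and *Xist*, were not part of it. The 95% critical value of the ratio was exceeded 6 times, and chance alone exceeds it in about 1 of 20 groups. For *Arg1*, control replicate 1 was low at a normalized count of 1481, beside 1642 to 1662 in the other 3 samples, and still far above all PHGDH-deficient samples. *Slc7a7*, a carrier light chain, was high in control replicate 2 at 503. *Nos3* was high in PHGDH-deficient replicate 4 at 17.5, beside 8.13 to 9.35. *Atp13a2* was low in PHGDH-deficient replicate 3 at 10276. *Slc18b1*, a vesicular polyamine carrier, was low in control replicate 1 at 42.8. *Ifngr1* was low in PHGDH-deficient replicate 1 at 10113.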

How the results depend on the processing

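Each value was recomputed under 19 alternatives. *Arg1*, *Odc1*, *Ass1*, *Srm* and *Sms* kept direction and call in all 19 of them, and *Nos2* in the 18 that could test it, with log2 fold changes of -2.51 to -2.13, -0.51 to -0.44, 0.53 to 0.62, -0.40 to -0.30, -0.30 to -0.23 and 0.24 to 0.77. Except for *Ass1*, the value nearest 0 came from the log2(FPKM + 1) scale. That scale adds 1 to the mean FPKM of *Nos2*, 0.361 in control and 0.602 in PHGDH-deficient TEMs. In its other settings *Nos2* ran from 0.64 to 0.77. With a filter at a mean normalized count of at least 100, *Nos2* and *Arg2* were not tested, so 1 of the genes was called higher and the median log2 fold change of those tested was -0.12. *Nfkb1* reversed to -0.029 with the GC content and length trend taken off, and the cause was not tested. The genes called over the whole table ran from 4930 (eBayes without trend) to 5917 (without control replicate 1), beside 5594. Omission of any other sample gave 4966 to 5117. Replicate numbers were shared between the genotypes, but residuals of same-numbered samples correlated at 0.063 to 0.126, and 3 of these 4 correlations were under 0.1, so the numbers were not taken to pair the samples. Control replicates 2, 3 and 4 correlated best with their own number, and control replicate 1 with PHGDH-deficient replicate 4. A fit with the replicate block called 5597 genes and the same number of the 10 genes, 7, and it called 3 rather than 5 genes of the nitric oxide list, 2 rather than 1 of the hypusine list, 6 rather than 7 of the polyamine list (*Amd1* lost) and 5 rather than 4 of the regulators of *Arg1* (*Cebpb* gained, limma adjusted p = 0.0331). With the GC content and length trend taken off, 1 rather than 4 of the regulators of *Nos2* was called. Depth limits *Nos2*, *Arg2* and *Nos3*, which rest on few reads.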

Other observations

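The first principal component of the 8 samples (44.81% of the variance) had negative scores in control and positive scores in PHGDH-deficient samples. Control replicate 1 was at -14.02, beside -21.25 to -20.04 in the other control samples. The second component (13.17% of the variance) had positive scores in replicates 1 and 4 and negative scores in replicates 2 and 3 of both genotypes. Within replicates 1 and 4 the log2 fold change was -2.55 for *Arg1*, 0.66 for *Ass1*, 0.76 for *Nos2* and -0.49 for *Odc1*, and within replicates 2 and 3 it was -2.39, 0.48, 0.67 and -0.51. *Arg2* had 0.44 and 0.63, and *Asl* changed sign (0.085 and -0.0091). The split was read from these same data, so these values are no independent check. Residuals of samples of different genotype correlated at 0.048 to 0.135 within each of these sets and at -0.124 to -0.036 between the sets. The labels name no batch for this split, and the main fit had no term for it.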
